A study of Mus musculus with 3 samples.

Results

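The change from the early to the late transcript response to lipopolysaccharide (LPS) was read in RAW264.7 cells by setting the array labelled 12 h of LPS against the array labelled 2 h of LPS. Every probe set that was not a control and had 1 annotated gene was taken, which gave 20380 of 22690 probe sets and 12393 genes. RAW264.7 is a transformed, macrophage-like mouse line. The 3 arrays hold total RNA of this line at 0, 2 and 12 h of LPS, with 1 array at each time. No treatment other than LPS is named, its dose is not given in the sources used here, and there is no array of cells kept untreated for 2 or 12 h. The 12 h and 2 h arrays therefore differ in time in culture as well as in the length of LPS exposure, and the 0 h array is given beside them as the untreated level.

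LPS, a glycolipid of the Gram-negative cell wall, is sensed on macrophages by Toll-like receptor 4 with its co-receptors CD14 and MD-2. Signalling through MyD88 activates NF-kB and MAP kinases and switches on immediate early genes, tumour necrosis factor and chemokines, together with the inhibitors that shut those pathways off again. Signalling through TRIF activates IRF3 and leads to interferon beta, which acts back on the cells through its receptor and induces a second, later set of antiviral genes. Both waves are textbook features of the macrophage response.

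Values are linear scaled intensities. A signal of 34.96, the 40th percentile of all scaled values, was used as a floor; it is not a detection call. Genes below that signal on both arrays were left out. Where 1 array of the pair was below it, the fold is a bound, written "at least". At 2 h 7807 genes and at 12 h 8168 genes reached the floor, and 8457 reached it on at least 1 of the pair. There was no replicate, so no difference was tested and the spread between cultures is unknown. A gene is called higher or lower where the signals differed at least 2-fold. The only error within the arrays is the disagreement between probe sets of one gene, an SD of 0.31 on the log2 scale over 2684 genes. Actb, which encodes beta actin, shows what that can mean: its bright probe set read 5161, 5824 and 5904 at 0, 2 and 12 h, while its dimmer one read 329, 186 and 541 and was 2.90-fold higher at 12 h than at 2 h. RNA came from whole cultures, in which fewer expressing cells and less RNA per cell cannot be told apart.

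Of the macrophage markers, 10 of 10 were measured, 4 passed 2-fold upward between 2 and 12 h and none downward. Among all measured genes 2.65% passed it upward and 1.97% downward. Lyz2, the lysozyme gene, read 6250, 6130 and 6308 and the LPS co-receptor gene Cd14 read 4599, 4998 and 6259. Markers of other cell types were mostly under the floor. None of 6 T cell markers on the array was measured, and 1 of 7 fibroblast, 2 of 5 B cell, 4 of 6 neutrophil, 1 of 6 epithelial and 1 of 6 endothelial markers were. Summed signals of the measured ones were 38.6 at 2 h and 64.5 at 12 h for fibroblasts, 59.1 and 101 for B cells, 104 and 186 for neutrophils, 60.8 and 52.8 for epithelium and 58.4 and 62.9 for endothelium. The macrophage list summed to 21962 and 25003. No measured marker of another cell type was 2-fold apart, and what part such cells had in any result was not tested.

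From 2 to 12 h, signals differed at least 2-fold upward for 224 of 8457 measured genes, which is 2.65% of them, and at least 2-fold downward for 167, which is 1.97%. Most genes moved little: 7055 genes, or 83.4%, differed by less than 1.5-fold, and the median log2 difference was 0.05. Differences of at least 4-fold were seen in 27 genes upward and 19 downward, and of at least 8-fold in 8 and 3. Which direction held more genes was decided by the scaling. When the medians of the arrays were made equal, the median over genes that reached the floor at both times moved from 0.04 to -0.06, 178 genes were higher and 225 lower, and 44.2% of the called genes were higher in place of 57.3%.

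**Figure D1:**
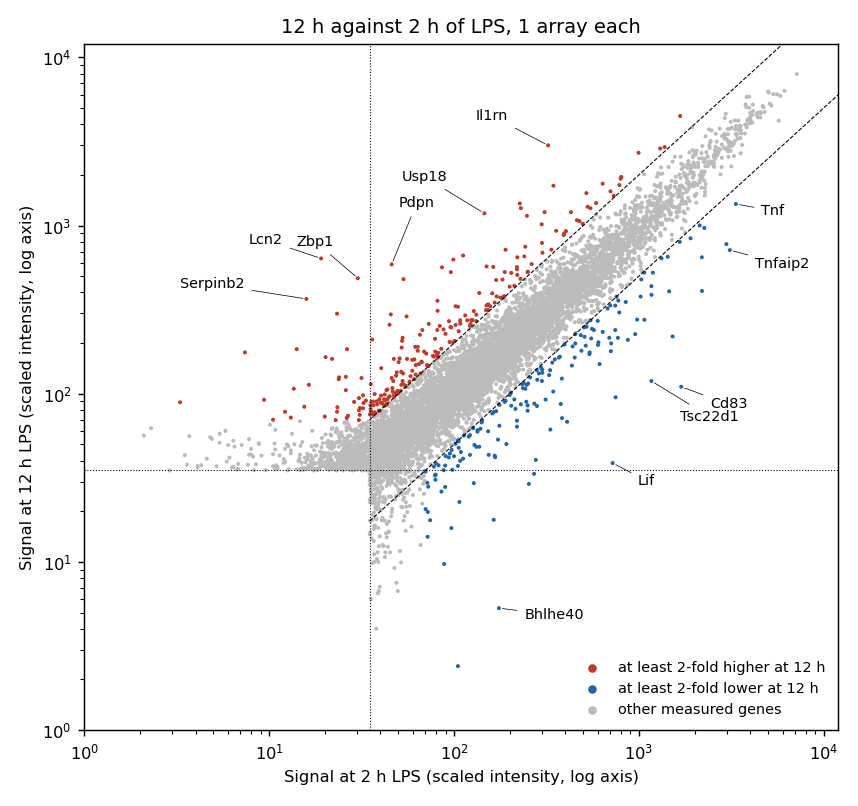
Scaled signal of each measured gene at 2 h of LPS (horizontal) and 12 h of LPS (vertical), 1 array each, both axes on a log scale; dashed lines mark 2-fold, dotted lines the floor of 34.96, which replaces lower signals in a fold. Most of the 8457 genes lie between the dashed lines, 224 lie above and 167 below, and genes such as Tnf and Tnfaip2 lie below the band at high signal while Il1rn and Usp18 lie above it.

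Median signals at 0, 2 and 12 h were 89.0, 65.6 and 190 for the 224 higher genes and 158, 271 and 92.5 for the 167 lower genes. The genes were chosen on the 2 h and 12 h arrays, which by itself favours a low 2 h and a high 12 h signal in the first set and the reverse in the second, so these medians are a description only. Some called genes had other probe sets that reached the floor at both times. The median of these went the same way for 45 of 46 higher genes and 55 of 61 lower genes. It did so by at least 1.5-fold for 33 and 43. Other probe sets under the floor at 1 of the times were not counted.

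Among genes that reached the floor at both times, the 3 largest decreases from 2 to 12 h were in a cytokine, a surface protein and a transcription regulator gene. Lif, which encodes leukemia inhibitory factor, a cytokine of the interleukin 6 family, read 9.19, 721 and 38.7 at 0, 2 and 12 h and was 18.7-fold lower at 12 h than at 2 h. Cd83, a surface glycoprotein of activated antigen-presenting cells, read 75.8, 1695 and 110 and was 15.4-fold lower. Tsc22d1, a leucine zipper transcription regulator, read 112, 1168 and 119 and was 9.78-fold lower. Each of these was high on the 2 h array alone, with a 12 h signal close to the untreated one or, for Lif, just above the floor. The 4 measured probe sets of Tsc22d1 ranged from -3.29 to -1.48, and the other measured probe set of Lif gave -2.39, at least 5.24-fold. The size for Lif depends on the floor, since its log2 difference of -4.22 was -3.09 under a floor at the 60th percentile of signals, called the 60th-percentile floor from here.

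The same peak at 2 h was seen in growth factor and signalling genes. Pdgfb, the B chain of platelet-derived growth factor, read 179, 1522 and 219 and was 6.94-fold lower at 12 h. Pim1, a serine/threonine kinase gene induced by cytokines, read 16.3, 871 and 209 and was 4.18-fold lower. Pde4b, a cAMP phosphodiesterase that macrophages use in the tumour necrosis factor response, read 61.3, 613 and 150 and was 4.09-fold lower. Tnfaip2, named for its induction by tumour necrosis factor, was among the brightest, with 242, 3103 and 714, and was 4.35-fold lower. Pim1, Pde4b and Tnfaip2 remained above their 0 h signals at 12 h. Pdgfb was 0.29 above its 0 h signal on the log2 scale, less than the SD between probe sets. Noct, a deadenylase-like gene under circadian control, read 244, 955 and 226, so that its 12 h signal was no higher than the untreated one. Dnajb4, a heat shock co-chaperone, read 50.4, 384 and 71.6 (5.36-fold lower).

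**Figure D2:**
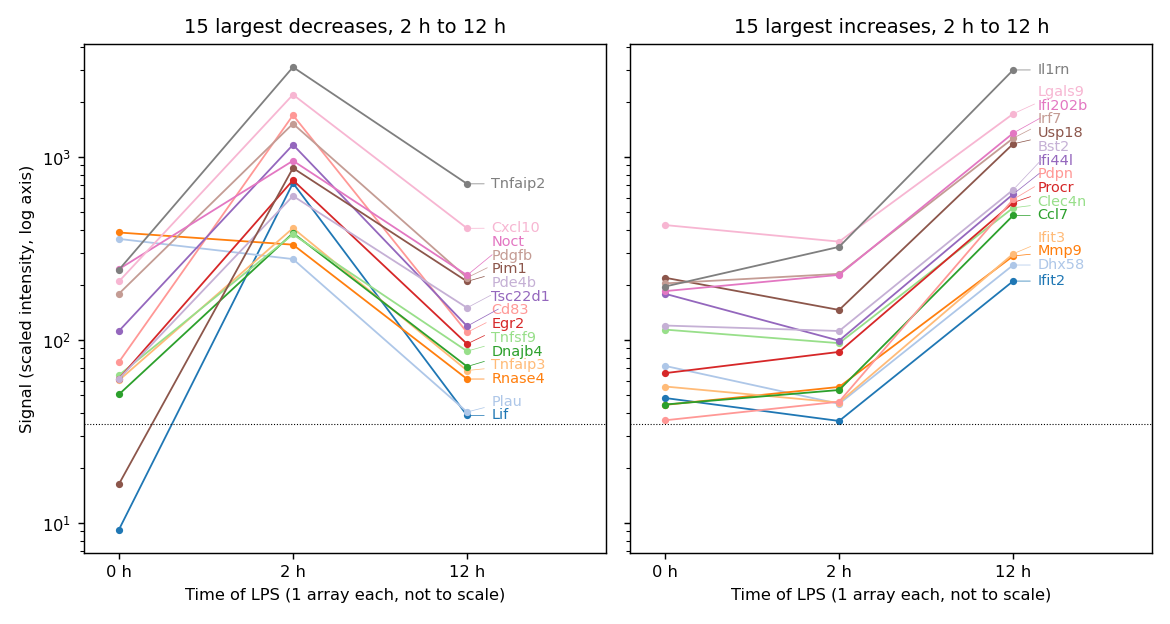
Scaled signal (log axis) at 0, 2 and 12 h of LPS, 1 array each, for the 15 largest decreases (left) and 15 largest increases (right) from 2 h to 12 h among genes that reached the floor at both times; the dotted line is the floor. In the left panel 13 genes peak at 2 h, and Plau and Rnase4 start high and are lower at 12 h than at both other times; in the right panel the 12 h signals are the highest, and between 0 and 2 h some genes are higher (Il1rn, 196 to 323) and some lower (Ifi44l, 179 to 99.2).

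Among these large decreases, 2 genes did not share the peak. Plau, the urokinase gene whose protease activates plasminogen, read 357, 277 and 40.4 and was 6.86-fold lower at 12 h than at 2 h. Its other probe set read 231, 142 and 67.0, a difference of 2.12-fold, so the direction was shared and the size was not. The log2 difference of -2.78 was -1.71 under the 60th-percentile floor. Rnase4, a secreted ribonuclease, read 387, 332 and 61.2 and was 5.42-fold lower. For both genes the 12 h signal was the lowest. On the other Plau probe set the 2 h signal was already below the 0 h one.

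In all 21 of the lower genes ended under the floor and have only bounds, and the 8 largest bounds are given here. Olr1, the gene of the oxidised LDL receptor LOX-1, read 271 at 2 h and was at least 7.75-fold lower, and Tnfrsf12a, the TWEAK receptor gene, read 254 and was at least 7.27-fold lower. Bhlhe40, a transcriptional repressor of the circadian and hypoxia systems, was at least 5.0-fold lower, with 175 at 2 h. Cd24a was at least 4.68-fold lower (164 at 2 h and 202 at 0 h). Olfml3, Gimap3, Gadd45a and AI504432 were at least 3.65-fold, 3.06-fold, 3.0-fold and 2.77-fold lower. Under the 60th-percentile floor Olr1, Tnfrsf12a and Bhlhe40 stayed called, at -1.68, -1.59 and -1.05 on the log2 scale, and the other calls of this paragraph were lost.

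The genes that transmit and restrain NF-kB signalling were lower at 12 h as a list. Measured were 22 NF-kB subunits, IkB proteins and ubiquitin regulators. Of these, 6 were at least 2-fold lower and none was higher, beside 1.97% and 2.65% of all measured genes. Their median log2 difference was -0.52, beside 0.05 over all measured genes, and stayed between -0.61 and -0.44 under the alternatives run. Below 0 were 19 of the 22. The list was chosen with earlier results of these arrays known and is no independent evidence of its direction.

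Within it, the largest decreases were in Tnfaip3, Nfkbiz, Nfkbie and Rel. Tnfaip3, the gene of A20, which removes ubiquitin chains from signalling proteins, read 60.2, 409 and 68.1 and was 6.0-fold lower at 12 h. Nfkbiz, the atypical IkB protein that acts as a co-activator on secondary response genes, read 42.7, 1458 and 406 (3.59-fold lower). Nfkbie, the gene of IkB epsilon, read 36.7, 173 and 53.4 (3.24-fold lower, with a log2 difference of -1.69 that was -1.03 under the 60th-percentile floor). Rel, the c-Rel subunit gene, read 35.3, 272 and 87.3 and was 3.12-fold lower, while Relb was 2.15-fold lower (21.8, 120 and 55.6), a call lost with a pseudocount (-0.79) and under the higher floor (-0.50). Traf1, an adaptor of TNF receptors, read 14.2, 552 and 213 (2.59-fold lower). By contrast Nfkbia, the classical IkB alpha gene, read 2061, 5705 and 4195, a log2 difference of -0.44, and Tnip1, an A20-binding protein, read 423, 1596 and 1198 (-0.41). Rela, the p65 subunit gene, read 448, 424 and 291 (-0.54) and was not above its untreated signal at either time. The list thus held genes back at their untreated signal, such as Tnfaip3, and genes still well above it, such as Nfkbia.

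For 2 of these decreases the promoter is shown, since it holds the letters of a kappa B site, the sequence that NF-kB dimers recognise. Sequences are RefSeq promoter stretches of build GRCm38.p6, written 5′ to 3′ on the gene's strand, each 100 bases long, and capitals mark the match to GGGNNTTTCC on either strand. The Tnfaip3 stretch is chr10:19015368-19015467 on the minus strand, with the match starting at -12 from the annotated gene start, and the Rel stretch is chr11:23771006-23771105 on the minus strand, with the match at -91.
Tnfaip3: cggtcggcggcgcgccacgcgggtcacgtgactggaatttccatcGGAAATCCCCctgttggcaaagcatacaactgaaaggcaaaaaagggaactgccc
Rel: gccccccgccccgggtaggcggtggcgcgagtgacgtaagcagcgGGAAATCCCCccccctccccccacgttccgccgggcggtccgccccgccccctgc
Both hold the same 10 letters in the same orientation. In windows of 300 bases around the start, these letters were rare in all gene sets: 3 of 141 lower genes with a promoter (2.13%), 4 of 179 higher genes (2.23%), 121 of 6900 measured genes (1.75%) and 1.62% of all 27025 promoters in the table. The kappa B letters thus occurred at a like share in genes lower at 12 h and in measured genes at large. A match is a description of the letters and not evidence of binding.

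Feedback on the MAP kinase and cytokine pathways split into genes that had dropped back and genes that had not. Dusp1, a phosphatase that switches off p38 and JNK, read 158, 705 and 179 and was 3.95-fold lower at 12 h. Dusp2, a phosphatase of ERK and p38, read 75.8, 692 and 215 (3.21-fold lower). Socs3, the inhibitor of signalling by interleukin 6 type cytokines, held its 2 h signal, with 15.8, 944 and 912. Dusp16, a JNK phosphatase, went the other way without reaching 2-fold, with 79.1, 139 and 237 (0.77). Of the 13 measured members, 3 were at least 2-fold lower and 1 was higher, beside 1.97% and 2.65% of all measured genes. The higher one, Dusp14, read 82.0, 39.2 and 79.4. It fell short of 2-fold with median scaling (0.92), quantile normalization (0.92) and a pseudocount (0.65), and was not measured under the 60th-percentile floor. The list median of -0.05 turned to 0.01 with the median over probe sets.

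Immediate early transcription factors, which need no new protein for their induction, were lower in 5 of 28 cases and higher in 2, where 1.97% and 2.65% of all measured genes were. Egr2, a zinc finger factor, read 61.4, 748 and 95.2 and was 7.87-fold lower, with both probe sets within 0.1 of each other on the log2 scale (-2.98 and -2.89). Junb, an AP-1 subunit gene, read 230, 979 and 276 (3.55-fold lower), and Id3, an inhibitor of helix-loop-helix factors, read 297, 542 and 176 (3.09-fold lower). Maff and Bhlhe40 ended under the floor. Jun, the gene of the founding AP-1 subunit, showed the reverse course, with 181, 63.7 and 180, and was 2.82-fold higher at 12 h; its other probe set gave 0.63. Id2 read 249, 31.6 and 124 and was at least 3.54-fold higher, a call lost under the 60th-percentile floor (0.55). Its other measured probe set gave 0.57, and the median over probe sets was 1.20. Fos was just short of 2-fold, with 938, 294 and 582. Within the AP-1 genes, Junb was thus high at 2 h, while the Jun and Fos signals were lowest there.

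Of the mRNA decay and early-response regulators, 2 of 17 were at least 2-fold lower and none was higher, with a median of -0.34, beside 1.97%, 2.65% and a median of 0.05 for all measured genes. Gadd45b, a stress gene that activates the MAP kinase kinase kinase MEKK4, read 51.9, 1021 and 378 (2.7-fold lower). Of its other probe sets, 1 gave -1.59 and 1 gave -0.01. Zfp36, the gene of tristetraprolin, which destabilises mRNAs with AU-rich elements such as that of Tnf, read 256, 1008 and 759 (-0.41), and Zc3h12a, the endonuclease Regnase-1, read 20.6, 188 and 102 (-0.89). Ier3, an early survival gene, was level at 235, 2245 and 2391.

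Cytokine genes did not move together. Of 18 measured, 4 were higher and 3 lower at 12 h, beside 2.65% and 1.97% of all measured genes. The median of 0.03 turned sign with median scaling, quantile normalization, the median over probe sets and suffixed probe sets left out. Tnf, the gene of tumour necrosis factor, read 184, 3346 and 1343 and was 2.49-fold lower at 12 h. Tnfsf9, the gene of the costimulatory ligand 4-1BBL, read 64.2, 378 and 86.9 (4.35-fold lower). Csf3, the granulocyte growth factor gene, continued upward, with 8.89, 248 and 1142 (4.60-fold higher). Il1a, interleukin 1 alpha, read 5.99, 183 and 477 (2.60-fold higher). Il1b, interleukin 1 beta, changed by 1.33-fold, with 42.1, 1968 and 2609. Ebi3, a subunit shared by interleukins 27 and 35, read 161, 178 and 373, with a log2 difference of 1.07.

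The largest increase among the cytokine genes was in an antagonist, while the largest decrease was in Lif, given above. Il1rn, which encodes the receptor antagonist that blocks interleukin 1, read 196, 323 and 2994 at 0, 2 and 12 h and was 9.27-fold higher at 12 h than at 2 h. Its 3 probe sets ranged from 2.65 to 3.21. The agonist genes Il1b and Il1a were therefore already well above their 0 h signals at 2 h, while most of the Il1rn signal appeared after it. Ifnb1, the interferon beta gene, was close to the floor throughout, with 34.4, 54.1 and 38.6. Il10 read 31.5, 57.6 and 35.9, and Il6 read 2.8, 25.5 and 67.4, so that Il6 was above the floor at 12 h alone.

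Chemokine genes divided by member as well. Cxcl10, an interferon-inducible attractant of T cells, read 209, 2194 and 408 and was 5.38-fold lower at 12 h. Ccl7, which attracts monocytes, read 44.4, 53.3 and 480 and was 9.0-fold higher (3.17 on the log2 scale, and 2.5 under the 60th-percentile floor). Ccl2, the main monocyte attractant and a genomic neighbour of Ccl7, read 452, 1672 and 4479 (2.68-fold higher). Ccl5, an attractant of T cells and monocytes, read 43.3, 796 and 1900 (2.39-fold higher). Ccl6 was 3.51-fold higher, with 12.1, 40.4 and 142, although its call was lost under the 60th-percentile floor. Of 16 measured chemokines 4 were higher and 1 lower, with a median of 0.33, beside 2.65%, 1.97% and 0.05 for all measured genes. Cxcl2, a neutrophil attractant, kept its 2 h signal (53, 3459 and 3702), and Ccl4 read 328, 3556 and 2686. Within the chemokines, Cxcl10 was thus highest at 2 h, Cxcl2 was high at both times, and Ccl7 was high at 12 h alone. At 12 h Cxcl10 was still 0.97 above its 0 h signal on the log2 scale.

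Antiviral genes induced by interferon were higher at 12 h as a group. Among 32 measured antiviral effectors, 21 passed 2-fold upward and none downward, beside 2.65% and 1.97% of all measured genes. Above 0 were 32 of 32. The median log2 difference was 1.24, beside 0.05 over all measured genes, and stayed between 1.12 and 1.32 under the alternatives run. Set against the untreated array, the list had a median of -0.17 at 2 h and of 0.93 at 12 h. These 3 comparisons share arrays, with the 2 h array entering with opposite sign, and are given side by side only. The list was chosen knowing that interferon genes were high at 12 h.

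Usp18, the protease that removes ISG15 and damps the interferon receptor, had the largest value in it, with 219, 146 and 1181 (8.09-fold higher). The IFIT genes, whose products bind foreign RNA, followed: Ifit3 read 55.7, 45.5 and 296 (6.50-fold), Ifit2 48.2, 36.1 and 210 (5.83-fold) and Ifit1 66.4, 102 and 331, with a log2 difference of 1.70. Under the 60th-percentile floor Ifit3 was at 1.81 in place of 2.7 and Ifit2 at 1.31 in place of 2.54, and with a pseudocount they were at 2.08 and 1.83. Bst2, tetherin, which holds budding virus on the membrane, read 120, 112 and 663 (5.90-fold). Isg20, an exonuclease, read 38.3, 52.7 and 215 (4.09-fold, with a log2 difference of 2.03 that was 1.35 under the 60th-percentile floor), and Rsad2, viperin, 98.3, 169 and 474 (1.48 on the log2 scale). For Oasl2, of the oligoadenylate synthetase family, only the 12 h array was above the floor, at 165, and it was at least 4.72-fold higher; with the higher floor it was at 0.96. Oas1a was bright throughout, with 752, 785 and 1740 (2.22-fold). Oasl1 stood apart: it read 241, 1308 and 1415 and had reached its 12 h signal by 2 h.

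The genes that sense nucleic acids and relay interferon were more selective. Zbp1, a sensor of Z-form nucleic acids, read 38.3, 30.2 and 486 and was at least 13.9-fold higher, or at least 4.72-fold by its other probe set. Dhx58, the RIG-I-like receptor LGP2, read 72.2, 44.8 and 257 (5.73-fold), and its log2 difference of 2.52 was 1.62 when the median of 3 probe sets was used and 1.6 under the 60th-percentile floor. Ifi204, a DNA-sensing protein of the p200 family, was at least 5.04-fold higher. Under the 60th-percentile floor Zbp1 was at 2.52 in place of 3.8 and Ifi204 at 1.06 in place of 2.33. Ifih1, the sensor MDA5, was lower than at 2 h without reaching 2-fold (141, 612 and 484). Irf7, the master regulator of the interferon alpha genes, read 204, 230 and 1268 (5.50-fold higher), and Stat2 read 62.5, 63.7 and 190 (2.99-fold). Irf9, their partner, was just under 2-fold (161, 121 and 240, or 0.99), and Irf1, Irf3 and Stat6 differed by less than 0.1 on the log2 scale. Among the 21 measured factors and receptors of this list, only Irf7 and Stat2 were 2-fold higher and none was lower. The shares over all measured genes were 2.65% and 1.97%.

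Interferon-inducible GTPases, which attack the vacuoles of intracellular pathogens, were higher at 12 h in 6 of 8 measured members and lower in none. Their median was 1.24, and the shares over all measured genes were 2.65% and 1.97%. Igtp, an immunity-related GTPase, read 113, 81.4 and 357 (4.39-fold higher), Ifi47 81.9, 61.0 and 160 (2.62-fold) and Irgm1 183, 200 and 433 (2.17-fold). Of the guanylate-binding proteins, Gbp7 read 30.2, 52.1 and 188 (3.61-fold), Gbp3 18.9, 46.4 and 108 (2.32-fold) and Gbp2 was at least 2.40-fold higher, with 83.7 at 12 h. Ifi47, Gbp3 and Gbp2 lost the call under the 60th-percentile floor, where Gbp7 was at 1.15 in place of 1.85. Genes within each of these GTPase families resemble each other, so their probe sets may share signal, which was not tested.

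**Figure D3:**
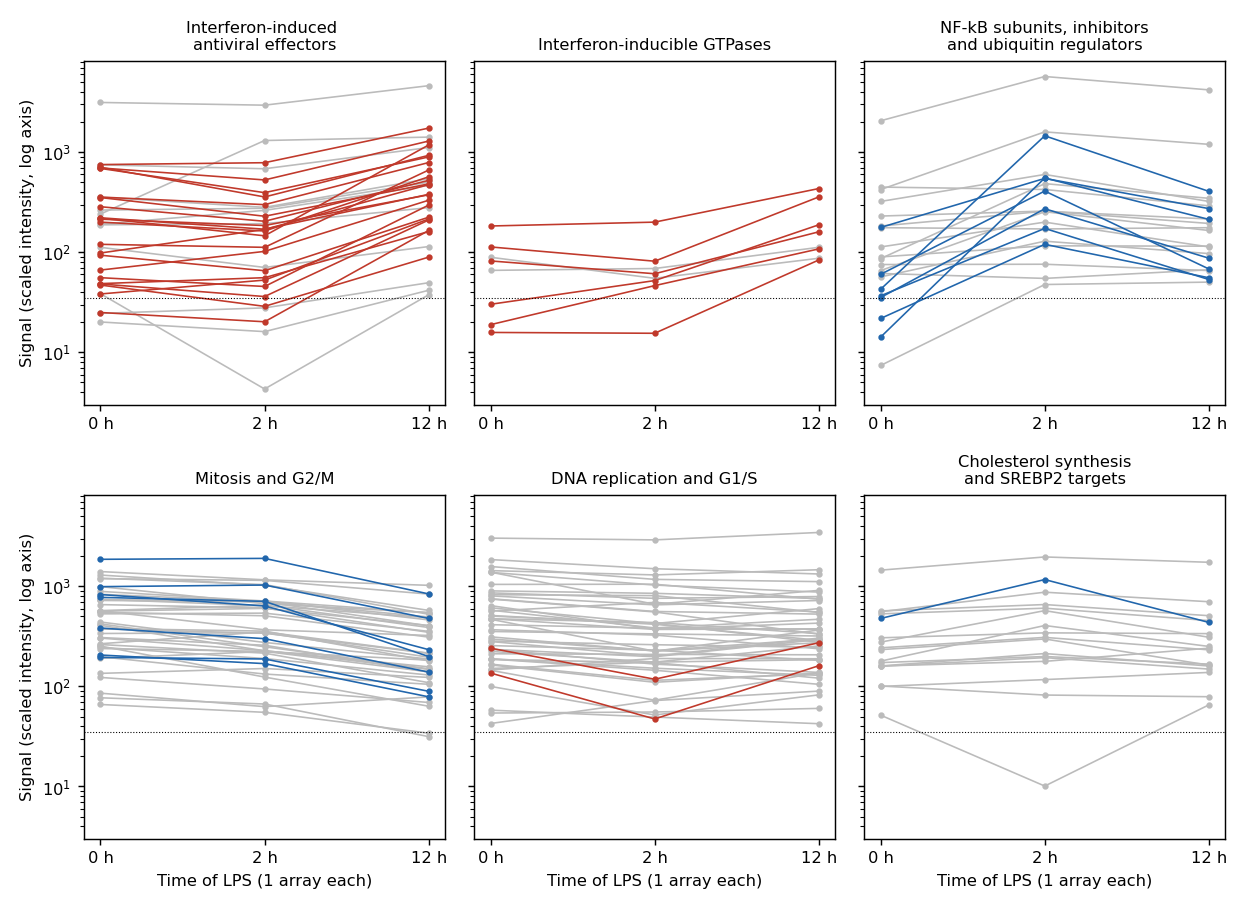
Scaled signal (log axis) at 0, 2 and 12 h of LPS, 1 array each, for every measured member of 6 gene lists; red lines are genes at least 2-fold higher at 12 h than at 2 h, blue lines at least 2-fold lower, grey lines neither, and the dotted line is the floor. The antiviral and GTPase panels climb after 2 h, the NF-kB panel peaks at 2 h, 42 of 43 mitotic genes are lower at 12 h than at 2 h, and the replication panel holds 2 red lines that dip at 2 h.

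The promoters of 4 of these genes are printed because the higher set held more matches to the interferon-stimulated response element (ISRE), a sequence found in promoters of interferon-induced genes, than measured genes at large. The letters searched were GAAANNGAAA on both strands, and capitals mark every match in the stretch. Ifit3 is shown from chr19:34583328-34583427 on the plus strand, with its first match at -156 from the gene start and 2 matches. Bst2 is chr8:71537548-71537647 on the minus strand, with 2 overlapping matches from -130. Igtp is chr11:58199477-58199576 on the plus strand, with a match at -34, and Gbp7 is chr3:142530238-142530337 on the plus strand, with a match at -53.
Ifit3: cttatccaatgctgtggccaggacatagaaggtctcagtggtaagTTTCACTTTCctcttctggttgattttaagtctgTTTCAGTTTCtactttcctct
Bst2: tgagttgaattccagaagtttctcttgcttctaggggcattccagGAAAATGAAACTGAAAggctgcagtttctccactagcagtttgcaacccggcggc
Igtp: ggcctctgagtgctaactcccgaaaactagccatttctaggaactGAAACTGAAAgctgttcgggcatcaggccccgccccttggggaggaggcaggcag
Gbp7: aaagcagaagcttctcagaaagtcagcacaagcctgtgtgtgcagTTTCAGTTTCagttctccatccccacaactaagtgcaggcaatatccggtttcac
In Ifit3 and Gbp7 the letters lie on the strand opposite the gene, and in Bst2 and Igtp on the gene's own strand. Of 179 higher genes with a promoter 26 held the letters (14.5%), against 4 of 141 lower genes (2.84%), 223 of 6900 measured genes (3.23%) and 3.49% of all 27025 promoters. Without the members of both interferon-induced lists, 14 of 155 higher genes held them (9.03%). Among the measured members of those lists with a promoter, 17 of 33 held them. The GAS letters TTCNNNGAA, another sequence known from interferon-responsive promoters, were in 15.1% of higher, 4.96% of lower and 6.77% of measured genes. Without the members of both interferon-induced lists the GAS share of higher genes was 11.0%. The general promoter letters TATAAA were also more frequent in higher genes, at 12.3%, against 9.22% of lower and 7.80% of measured genes. For CCAAT the shares were 38.0%, 46.1% and 38.1%. Promoters of family members resemble each other, so these counts are not independent, and they were not tested.

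**Figure D4:**
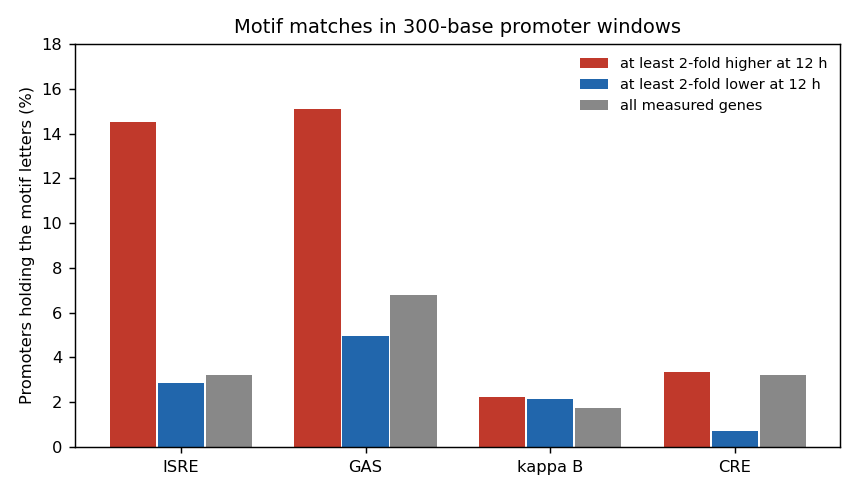
Share of promoters (vertical, percent) that hold the letters of 4 motifs within 300 bases, for genes at least 2-fold higher at 12 h than at 2 h (179 with a promoter), at least 2-fold lower (141) and all measured genes (6900). The ISRE letters are in 14.5% of higher against 3.23% of measured genes and the GAS letters in 15.1% against 6.77%, while the kappa B letters are at 1.75% to 2.23% in all of them.

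Genes that load peptides on MHC class I were higher in part. With a median of 0.50, 3 of 16 measured passed 2-fold upward and none downward, beside 2.65% and 1.97% of all measured genes. Tap1, a subunit of the peptide transporter of the endoplasmic reticulum, read 128, 93.9 and 270 (2.87-fold higher). Tapbp, tapasin, which bridges the transporter and MHC class I, read 515, 477 and 1063 (2.23-fold), which the median of its probe sets put at 0.72 on the log2 scale. H2-T24, a non-classical class I gene, read 69.8, 52.4 and 206 (3.93-fold), with a log2 difference of 1.98 that was 1.28 under the 60th-percentile floor. The classical heavy chain gene H2-K1 read 1616, 2078 and 1741 and H2-D1 2104, 2431 and 3123, while B2m, the light chain, read 2729, 2393 and 3726 (0.64). The costimulation and adhesion list had a median of 0.00. Its members Cd83 and Icam1, the adhesion ligand of leukocyte integrins (288, 1071 and 275, or 3.90-fold), were lower, while the integrin genes Itgax (69.7, 87.8 and 241) and Itgb7 (18, 79 and 212) were 2.75-fold and 2.68-fold higher. Cd80 and Cd274 were at 0.75 and 0.91, and the MHC class II genes H2-Aa and H2-Eb1 were near the floor.

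Of 22 measured matrix proteases, serpins and coagulation genes, 7 were at least 2-fold higher and 3 lower by their brightest probe sets. The list median was 0.30, and 2.65% of all measured genes were higher and 1.97% lower. The lower members were Plau, the transglutaminase gene Tgm2 (114, 299 and 119) and Sdc4, whose direction is not settled. Mmp9, gelatinase B, read 44.2, 55.4 and 288 (5.19-fold higher), and Mmp14, a membrane-bound collagenase, 27.1, 59.4 and 159 (2.68-fold), the latter 0.91 under the 60th-percentile floor. Serpinb2, the type 2 inhibitor of urokinase, was under the floor at 2 h and read 366 at 12 h, at least 10.5-fold higher. Under the 60th-percentile floor Serpinb2 was at 2.11 in place of 3.39 and Mmp9 at 1.76 in place of 2.38. Plau, the urokinase gene itself, was lower as given above, and its receptor gene Plaur kept its signal (456, 1811 and 1917). Within the urokinase system the protease, its receptor and its inhibitor gene thus took 3 different courses. Sdc4, syndecan 4, cannot be given a direction, since 1 probe set read 180, 745 and 239 (-1.64) and the other 102, 132 and 387 (1.55). Thbs1, thrombospondin 1, was at least 3.57-fold higher (0.56 under the 60th-percentile floor), and Mmp12, macrophage elastase, at least 2.63-fold (0.12 there). Timp1, an inhibitor of metalloproteinases, was higher by a bound of at least 1.23 on the log2 scale. Its 12 h signal of 81.9 lay below the 60th-percentile floor.

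Acute phase and antimicrobial genes gave the largest bound upward. Lcn2, lipocalin 2, which withholds iron from bacteria by binding siderophores, was under the floor at 0 and 2 h and read 637 at 12 h, at least 18.2-fold higher. The size depends on the floor: its log2 difference of 4.19 was 2.91 under the 60th-percentile floor and 5.06 under the 20th-percentile one. Saa3, serum amyloid A3, read 39.7, 220 and 647 (2.94-fold higher), and Slc11a1, the NRAMP1 metal transporter of phagosomes, 521, 731 and 1500 (2.05-fold, or 0.94 with median scaling). Cfb, complement factor B, was at least 3.05-fold higher, with 107 at 12 h, and the formyl peptide receptor gene Fpr2 2.38-fold higher (47.1, 62.1 and 148), and both calls were lost under the 60th-percentile floor (0.34 and 0.80). Of 15 measured members 5 were higher and none lower, beside 2.65% and 1.97% of all measured genes. Podoplanin, Pdpn, a mucin-like surface protein of activated macrophages, led all increases for which both arrays reached the floor, with 36.4, 46.0 and 587 (12.8-fold higher). Its log2 difference of 3.68 was 2.79 under the 60th-percentile floor and 2.99 with a pseudocount. Procr, the protein C receptor gene, read 65.9, 86.1 and 564 (6.55-fold).

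Macrophage surface genes diverged. Ccr1, a chemokine receptor gene, was under the floor at 0 and 2 h and read 299 at 12 h, at least 8.56-fold higher, with a log2 difference of 3.10 that was 1.82 under the 60th-percentile floor. Clec4n, the C-type lectin Dectin-2, read 114, 96.1 and 528 (5.49-fold higher), and Fcgr1, the high-affinity IgG receptor gene, 289, 190 and 718 (3.77-fold). Pilra, an inhibitory paired receptor, read 50.3, 61.7 and 190 (3.09-fold), and Cd200r1, the receptor for CD200, was at least 4.62-fold higher (161 at 12 h), a call lost under the 60th-percentile floor (0.93). Adgre1, the F4/80 gene, read 598, 547 and 1267, a log2 difference of 1.21. Gpr84, a receptor for medium-chain fatty acids, was lower, with 509, 2974 and 775 (3.84-fold). In all 8 of 28 were higher and 3 lower, beside 2.65% and 1.97% of all measured genes. Of the 3, Trem2 is uncertain, since its bright suffixed probe set read 1338, 1170 and 387 and the other 31.8, 36.7 and 41.4.

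Of 18 measured genes of Toll-like receptor signalling, 1 was at least 2-fold higher and 1 lower. Among all measured genes 2.65% were higher and 1.97% lower, so 1 gene each way is no result about the list. Tlr4, the receptor for LPS, read 251, 82.2 and 175 and was 2.13-fold higher at 12 h than at 2 h, with its other probe set at 196, 41.3 and 118 (2.85-fold). With median scaling the first was at 0.99 and with a pseudocount at 0.86, both just short of 2-fold. Tlr2, which senses bacterial lipoproteins, read 994, 2191 and 647 and was 3.38-fold lower. Ly86, the gene of MD-1, a relative of MD-2, read 2191, 2260 and 967 (2.34-fold lower), whereas MD-2 itself, Ly96, read 131, 122 and 164. The LPS co-receptor Cd14 had a log2 difference of 0.32 and Ly96 of 0.43, and the list median was 0.10.

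Mitotic genes were lower at 12 h almost without exception. Of 43 measured, 42 were below 0, with a median of -0.68 that stayed between -0.78 and -0.60 under the alternatives run. Only 7 passed 2-fold and none was higher, beside 1.97% and 2.65% of all measured genes. Ccnb2, cyclin B2, which drives entry into mitosis, read 776, 708 and 199 (3.57-fold lower). Cenpa, the centromere histone gene, read 828, 637 and 233 (2.74-fold lower), and Cdc20, the activator of the anaphase-promoting complex, 993, 1031 and 478 (2.16-fold lower). These genes were near their untreated signal at 2 h, so the lower signal belongs to the 12 h array. Cdk1 was milder, at 1194, 1147 and 837 (-0.45), and Mki67, the Ki-67 gene, read 1297, 1023 and 575 (-0.83). Pttg1, securin, was 2.27-fold lower by its bright probe set (1863, 1903 and 840), and another probe set read 639, 602 and 285 (2.11-fold lower). A dim probe set, the only one of the gene without a letter suffix, read 81.8, 69.3 and 75.9 and gave 0.13, so the direction turned when suffixed probe sets were left out. Cenpf, Ncapd2 and Ncapg were 2.16-fold, 2.15-fold and 2.10-fold lower, and the first pair lost the call with a pseudocount (-0.96 and -0.86).

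Replication and G1/S genes did not follow. Of 48 measured, 2 were higher and none lower, a count near the 2.65% of all measured genes that were higher. In the list 24 were above 0 and 24 below, and the median of 0.01 turned to -0.09 with median scaling. Cdc6, which loads the replicative helicase, read 136, 47.3 and 161 (3.40-fold higher, and 0.93 under the 60th-percentile floor), and Ccne2, cyclin E2, 241, 118 and 273 (2.32-fold). Both were lowest at 2 h and back at their untreated signal at 12 h. Pcna, the replication clamp gene, was level at 3034, 2913 and 3455, and Mcm2 read 611, 425 and 599. Cdkn1a, the CDK inhibitor p21, read 596, 1325 and 638 and was 2.08-fold lower at 12 h, or -0.91 by the median over its probe sets. Rb1, the retinoblastoma gene, was 2.04-fold lower (87.2, 106 and 52.1), a call lost with a pseudocount (-0.72) and under the 60th-percentile floor (-0.33). Txnip, a thioredoxin-binding protein that restrains glucose uptake, read 698, 188 and 529 and was 2.81-fold higher.

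**Figure D5:**
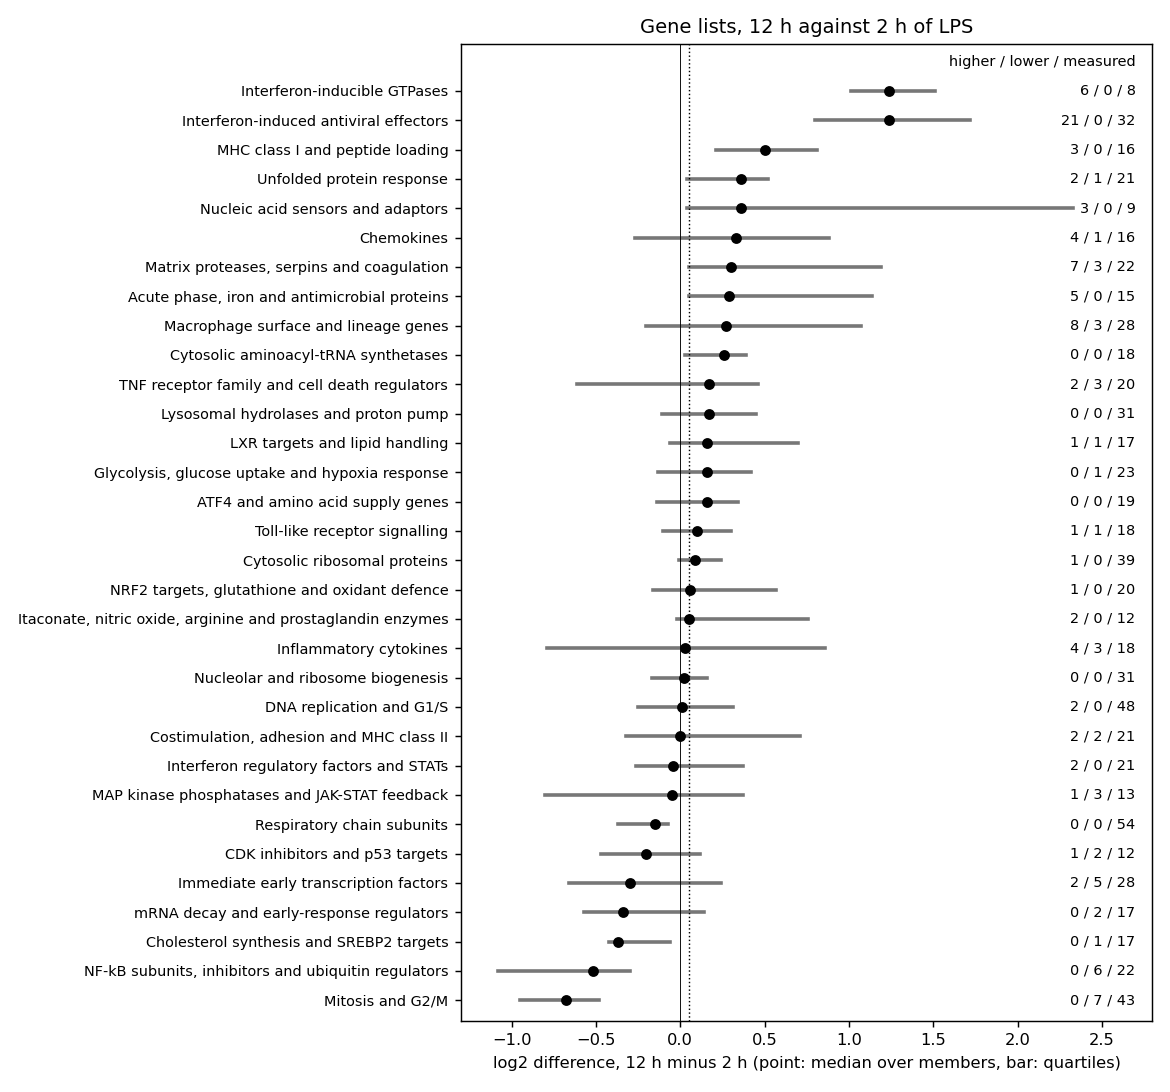
Median (point) and quartiles (bar) of the log2 difference, 12 h minus 2 h of LPS, over the measured members of each of 32 gene lists, with the numbers at least 2-fold higher, at least 2-fold lower and measured at the right; the dotted line is the median of all measured genes, 0.05. The 2 interferon-induced lists are furthest to the right at 1.24, and the mitotic and NF-kB lists furthest to the left at -0.68 and -0.52.

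Metabolic lists held few called genes. Of 17 measured cholesterol genes 1 was lower, and of 23 glycolysis and hypoxia genes 1 was lower. Of 17 LXR target and lipid genes 1 was higher and 1 lower. Over all measured genes 2.65% were higher and 1.97% lower, 3736 of 8457 were below 0, and the median was 0.05. Such single called genes are no result about a list. Cholesterol synthesis genes had a median of -0.37, with 14 of 17 below 0, but only Hmgcs1, the enzyme before HMG-CoA reductase, was 2-fold lower (478, 1169 and 436, or 2.68-fold), and its 4 probe sets agreed between -1.48 and -1.31. Cyp51 followed at 277, 572 and 310 (-0.88) and Sc5d at 179, 406 and 251 (-0.70). Each of these 3 was highest at 2 h. Respiratory chain subunits were below 0 in 44 of 54 cases with a median of -0.15 and no member 2-fold apart. Glycolysis genes had a median of 0.16, with Hk2 at 417, 298 and 568 (0.93) and Slc2a1, the glucose transporter gene, at 299, 480 and 810 (0.75). Plin2, which coats lipid droplets, was 2.42-fold higher (1178, 803 and 1944). Mylip, a ubiquitin ligase of the LDL receptor, was 2.05-fold lower (150, 176 and 85.8), and the hypoxia gene Ndrg1 was 2.11-fold lower (75, 77.8 and 36.9). Both lost the call with a pseudocount (-0.82 and -0.67). Ndrg1 also lost it with the median over its probe sets (-0.82) and was not measured under the 60th-percentile floor.

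Of 12 measured enzymes of itaconate, nitric oxide, arginine and prostaglandin metabolism, 2 passed 2-fold upward and none downward. Over all measured genes 2.65% and 1.97% did. Acod1, which makes itaconate, read 10.2, 2546 and 2558, and Ptgs2, the inducible prostaglandin synthase, 249, 2463 and 2346, so both were level from 2 to 12 h. Gch1, which supplies the cofactor of nitric oxide synthase, read 144, 319 and 610 (0.93), and Nos2 itself was under the floor on every array. Sat1, a polyamine acetyltransferase, was 3.0-fold higher (478, 520 and 1558). Slc7a2, an arginine transporter, was at least 2.09-fold higher (73.1 at 12 h), a call lost with the median over its probe sets (0.69), and it was not measured under the 60th-percentile floor. The list median of 0.05 turned to -0.04 with median scaling. Of the 20 measured NRF2 targets and oxidant defence genes, Hmox1, heme oxygenase 1, was 2.11-fold higher (323, 250 and 528), a call lost with median scaling (0.98) and with a pseudocount (0.99).

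Protein folding genes of the endoplasmic reticulum had a median of 0.36, between 0.26 and 0.40 under the alternatives, with 17 of 21 above 0. Over all measured genes the median was 0.05, and 4713 of 8457 were above 0. Of the 21 genes 2 were at least 2-fold higher and 1 lower, beside 2.65% and 1.97% of all measured genes. Dnajb9 and Creld2, both targets of the unfolded protein response, were 3.14-fold and 2.8-fold higher (142, 105 and 329, and 450, 429 and 1201). Herpud1, a factor of protein degradation at the endoplasmic reticulum, went the other way at 209, 757 and 377 (2.01-fold lower, and -0.96 under quantile normalization). Hspa5, the main chaperone BiP, was level at 3121, 4113 and 4098. Nucleolar genes (median 0.02), cytosolic ribosomal proteins (0.09), lysosomal genes (0.17) and amino acid supply genes (0.16) held 1 called gene among them, Rpl27a. Measured were 31, 39, 31 and 19 genes of these lists, so 1 called gene is no result about them. The first and second of these medians turned sign with median scaling.

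Of 20 measured TNF receptor and cell death genes, 2 were at least 2-fold higher and 3 lower, with a median of 0.17. For all measured genes the shares were 2.65% and 1.97% and the median was 0.05. Tnfrsf1b, the gene of TNF receptor 2, read 79.9, 243 and 748 (3.08-fold higher), and Casp4, the caspase that binds cytosolic LPS, 54.5, 46.9 and 119 (2.54-fold higher), the latter a call lost with a pseudocount (0.94) and under the 60th-percentile floor (0.49). Bcl2l11, the pro-death BIM gene, read 159, 450 and 164 (2.73-fold lower), and its 5 measured probe sets ranged from -2.31 to -1.12. Pmaip1, the pro-death NOXA gene, read 178, 176 and 64.5 (2.74-fold lower). Cflar, an inhibitor of caspase 8, read 116, 485 and 223 (2.17-fold lower), with 4 probe sets from -1.69 to -0.22. Genes that promote and genes that restrain cell death were thus among the lower members.

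Other large or bright differences fell outside the lists. Ifi44l read 179, 99.2 and 627 (6.32-fold higher) and Ifi202b, of the p200 family, 185, 227 and 1352 (5.96-fold higher). Lgals9, galectin 9, read 425, 345 and 1724 (4.99-fold higher). Klk1b21, of the kallikrein family, was at least 5.25-fold higher, with a log2 difference of 2.39 that was 1.12 under the 60th-percentile floor, and Ifi209 was at least 5.28-fold higher, or 1.12 in place of 2.40 there. Among the brightest higher genes, Rac2, a small GTPase gene of blood cells, read 1240, 1304 and 2870 (2.2-fold higher) and Slfn4 710, 996 and 2706 (2.72-fold). Glrx, glutaredoxin, read 1103, 1378 and 2926 (2.12-fold), a call lost with median scaling (0.99). Kdelr2, which retrieves proteins to the endoplasmic reticulum, read 576, 637 and 1772 (2.78-fold), but 0.76 by the median over its probe sets. Among the brightest lower genes, Stmn1, stathmin, which destabilises microtubules, read 1508, 1663 and 799 (2.08-fold lower). Marcksl1, which binds actin and membranes, read 335, 2132 and 1001 (2.13-fold lower), but -0.52 by the median over its probe sets.

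Genes higher at 12 h were in part neighbours in the genome. In RefSeq order among measured protein-coding genes, 36 of the 224 higher genes stood directly beside another higher gene, in 16 runs, while 4 of the 167 lower genes did, in 2 runs. The longest run was on chromosome 3 and held Gbp7, Gbp3, Gbp2b and Gbp2. Ifit2, Ifit3 and Ifit1 stood together on chromosome 19, Ccl2 and Ccl7 on chromosome 11, Rsad2 and Cmpk2 on chromosome 12, Ifi209 and Ifi204 on chromosome 1, and the integrin genes Itgam and Itgax on chromosome 7. Several runs are gene families of like sequence, whose probe sets may share signal, and a larger called set has more neighbours, so the counts are a description.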

How the data were processed

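Total RNA of RAW264.7 cells was measured on 1-colour arrays, 1 at each of 0, 2 and 12 h of LPS; per the labels' protocols, targets came from 5 µg of RNA by a modified Affymetrix procedure. Values are linear intensity per probe set, as deposited by the authors. Each deposited column had a 2% trimmed mean of 150.1, so the arrays had been scaled to 1 target, and a change in total mRNA would not be seen. The LPS dose, like the scanner software and the summarisation, is not given in the sources used here.

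Arrays were brought to equal 2% trimmed means of the 22626 probe sets that are not controls. The platform annotation listed 1 gene for 20380 of these, several for 691 (left out) and none for 1555; 20351 matched a RefSeq gene table of build GRCm38.p6. The brightest probe set over all arrays stood for a gene. Values under the floor, the 40th percentile, were set to it before log2. Python 3.11.15, numpy 2.4.6, pandas 2.3.3 and matplotlib 3.10.9 were used, and the counting was tested on simulated data. The number of arrays limits the precision, and no p-value was computed.

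Genes were named by rule: the 15 largest increases and decreases with both arrays at or above the floor, the 8 largest bounds each way, the 10 brightest called genes each way, up to 6 called members of each list, and Tnf, Il1b, Tlr4, Nos2, Gapdh and Actb. Gapdh had no probe set with 1 gene. Sdc4, whose probe sets were 2-fold apart in opposite directions, was left out of the ranks. Other list members and genes are examples picked with their values in view. The members, the 32 gene lists and the 7 marker lists were chosen with earlier results of these data known. Promoters were the first listed RefSeq window of a gene, 250 bases before and 50 after its start, found for 6900 of 8457 measured genes. Alternatives were a floor at the 20th or the 60th percentile, a pseudocount of 32, quantile normalization, median scaling, the deposited values, the median over probe sets, no probe sets with a letter suffix, and folds of 1.5 and 3.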

Additional observations from a re-analysis of the deposited data

How the results depend on the processing

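The number of genes at least 2-fold higher at 12 h than at 2 h was 224. It came to 601 when the floor was the 20th percentile, 124 when it was the 60th, 146 with a pseudocount, 857 at a fold of 1.5 and 55 at a fold of 3. The number lower was 167, and 343, 111, 107, 545 and 48 under the same settings. The other settings kept both counts within 1.5 times: values as deposited gave 221 and 169, quantile normalization 201 and 184, the median over probe sets 199 and 143, no suffixed probe sets 186 and 138, and median scaling 178 and 225. At least 2-fold under every alternative to the scaling, floor and probe sets were 89 of the higher and 75 of the lower genes. Here and in the next count, a gene not measured without suffixed probe sets was not held to that alternative. Of the 127 named genes that were called, 37 lost the call under some alternative, 24 of them with the floor at the 60th percentile. Pttg1 reversed, with a log2 difference of 0.13 without suffixed probe sets. No list median reversed from a side it had reached beyond the SD between probe sets. Medians nearer 0 could not count as reversed by that rule, and several turned sign. Besides those named above, interferon regulatory factors and STATs went from -0.04 to 0.05 with the median over probe sets. The costimulation list went from 0.00 to -0.12 under the 60th-percentile floor. NRF2 targets went from 0.06 to -0.03 with median scaling, and CDK inhibitors from -0.20 to 0.02 without suffixed probe sets. Signals near background limit the sizes, since 49 of the higher and 24 of the lower genes had a larger signal under 100. Leaving out a replicate could not be run. No paired analysis was possible because each time has 1 array.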

Other observations

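Some called genes outside the lists, chosen after their values were seen, share a family. The interleukin 36 genes Il1f9 (54.2, 37.2 and 99.5 at 0, 2 and 12 h) and Il1f6 (113, 68.9 and 178) were called higher at 12 h than at 2 h, as were the receptor subunit genes Csf2rb (32.9, 26 and 105, with 0 and 2 h under the floor) and Csf2rb2 (73.8, 49.0 and 134), which serve GM-CSF and interleukin 3. These signals are low, and none of the differences has a replicate.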
